A study of Mus musculus with 24 samples.

Results

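Skin of alopecic mice treated with the JAK1-selective inhibitor INCB039110 (JAK1i) was compared with skin treated with ruxolitinib (RUXO), which blocks both JAK1 and JAK2. The comparison takes the 6 libraries labelled JAK1i replicates 1 to 3 and RUXO replicates 1 to 3, of 24 skin libraries in the series, and covers 17770 genes with enough counts of 27179 in the table. All mice were C3H/HeJ with alopecia areata (AA), an autoimmune hair loss, and AA had been transferred to them by grafts of alopecic skin or by T cells. The methods give systemic INCB039110 at 50 mg/kg and ruxolitinib at 30 mg/kg through an osmotic pump, whereas the protocol text of the labels describes an ointment at 2% (w/w), so the route behind these libraries is not settled here. At the systemic doses drug and dose differ together and cannot be told apart. Levels in the 3 control libraries, which the labels call untreated and the study describes as given vehicle, are shown where they place a value. Krt5, the basal keratinocyte keratin that skin should hold, was abundant in every library compared. The labels do not say that replicates were separate mice, so p-values measure the spread between libraries. In the main fit that spread was pooled over all 24 libraries in 7 groups. It is not the spread of the 6 compared libraries alone.

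Janus kinases work in pairs below cytokine receptors and phosphorylate STAT transcription factors. JAK1 acts with JAK3 below the common γ chain (γc) receptors for IL-2, IL-7 and IL-15, with JAK2 below the IFN-γ receptor, and with TYK2 below the type I interferon receptor, while JAK2 alone serves GM-CSF, erythropoietin and growth hormone. In AA, CD8+ T cells that carry NKG2D surround the hair follicle, and IFN-γ raises MHC class I and II molecules and the chemokines CXCL9, CXCL10 and CXCL11 in it. Both compounds reach the γc and the interferon receptors through JAK1, and only ruxolitinib is named for JAK2 as well.

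JAK1i replicate 3 stood apart from the other JAK1i libraries. Over the genes tested, its log2 CPM (counts scaled to a common library size) correlated at 0.947 and 0.951 with JAK1i replicates 1 and 2 and at 0.973 to 0.981 with the RUXO libraries, where JAK1i replicates 1 and 2 correlated at 0.990 with each other and the RUXO libraries at 0.989 to 0.993. Among 3666 genes in which the mean of JAK1i replicates 1 and 2 lay at least 1 log2 unit from RUXO, replicate 3 was nearer to them than to RUXO in 630 (17.2%). Skeletal muscle genes took 15.1, 13.7 and 6.70% of the counts of JAK1i replicates 1, 2 and 3, against 4.58, 4.27 and 4.38% in RUXO replicates 1, 2 and 3 and 1.13 to 1.48% in controls. Total counts were 17872294 to 21396223 in JAK1i and 19296139 to 21631379 in RUXO. A second deposited table, of score values, gives 6 of its 24 columns, JAK1i replicates 2 and 3 among them, the name of another library than the counts do. There the library that the counts call JAK1i replicate 2 is named JAK2i replicate 1, and JAK1i replicate 3 is named JAK3i replicate 1. Under the names of the count table libraries correlate at 0.947 to 0.990 within JAK1i, 0.990 to 0.992 within JAK2i and 0.985 to 0.987 within JAK3i, against 0.842 to 0.933, 0.832 to 0.934 and 0.861 to 0.940 under those of the score table. The groups here follow the count table, and which names are right is not settled here.

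Across all genes, 5800 of 17770 (32.6%) differed between JAK1i and RUXO at an adjusted p below 0.05 in edgeR's quasi-likelihood test, of which 2701 (15.2%) were higher and 3099 (17.4%) lower in JAK1i. The libraries of the groups did not overlap in 2624 genes (14.8%) that were higher and 3446 (19.4%) that were lower in JAK1i. With library sizes scaled without the muscle genes the split was 3443 higher and 2589 lower. The count was 3334 without JAK1i replicate 1 and 3407 without JAK1i replicate 2. Without JAK1i replicate 3 it was 9493 (52.7%), with 4715 higher (26.2%) and 4778 lower (26.5%). Replicate 3 alone, assumed to vary like the libraries of the other groups, gave 658 (3.58%), with 345 higher (1.87%) and 313 lower (1.7%). A fit to the 6 libraries alone called 4 genes, where 4575 had an unadjusted p below 0.05, and the same fit without JAK1i replicate 3 called 9662. Set against controls, 11403 genes (64.2%) differed in JAK1i and 9042 (50.9%) in RUXO. These 2 comparisons share the control libraries, so their values are only set side by side.

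**Figure D1:**
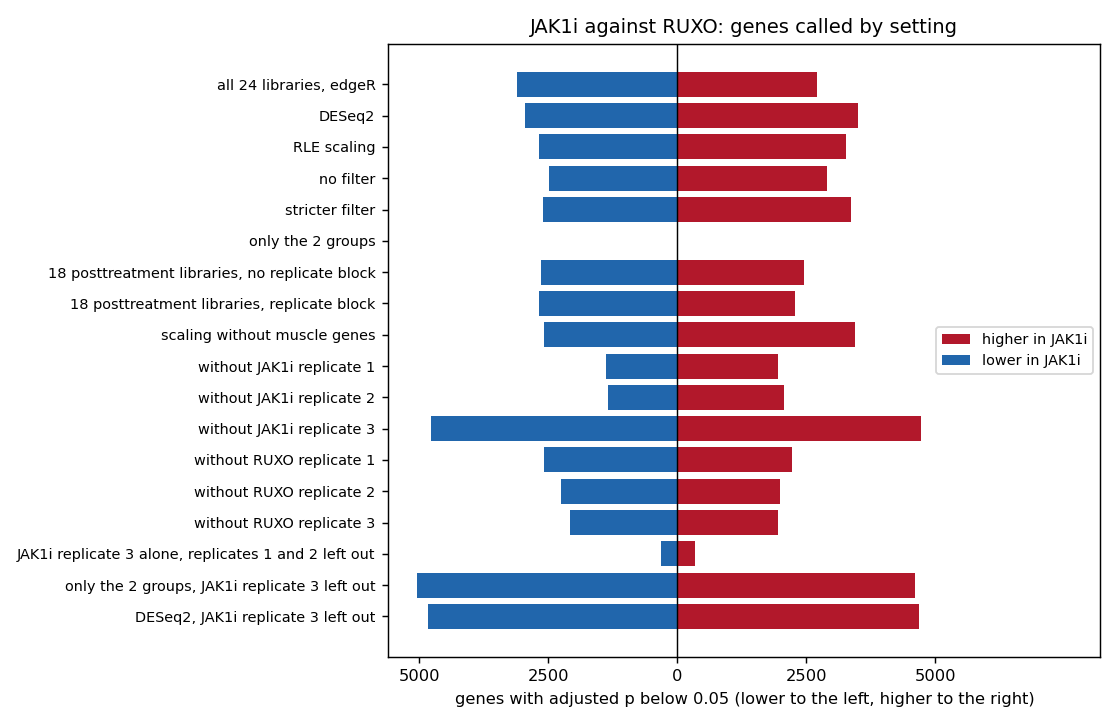
Number of genes with an adjusted p below 0.05 between JAK1i and RUXO under each setting, with genes higher in JAK1i to the right and lower to the left. The total is 5800 with all libraries, 9493 without JAK1i replicate 3, 658 with JAK1i replicate 3 alone and 4 when only the 6 libraries are fitted.

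Genes are described below in 3 patterns. By the mean of each list, immune genes of T cells, interferon responses, MHC class I and mast cells were lower in all JAK1i libraries, replicate 3 included. Genes of antigen-presenting cells, fibroblasts and vessels were lower, and muscle and respiratory chain genes higher, mainly in JAK1i replicates 1 and 2. Most epidermal genes were lower in those libraries too, but their mean in replicate 3 lay above the RUXO libraries. Inner root sheath genes were higher through replicate 3. Values are given in the order of replicates 1, 2 and 3, as CPM, log2 fold changes are JAK1i minus RUXO with their standard error, and adjusted p-values come from edgeR. Counts of called genes in a list are to be read beside the shares over all genes. With all libraries 15.2% of all genes were higher and 17.4% lower in JAK1i. Without JAK1i replicate 3 these shares were 26.2 and 26.5%. Fewer cells of a type and less RNA per cell cannot be told apart in these bulk biopsies.

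**Figure D2:**
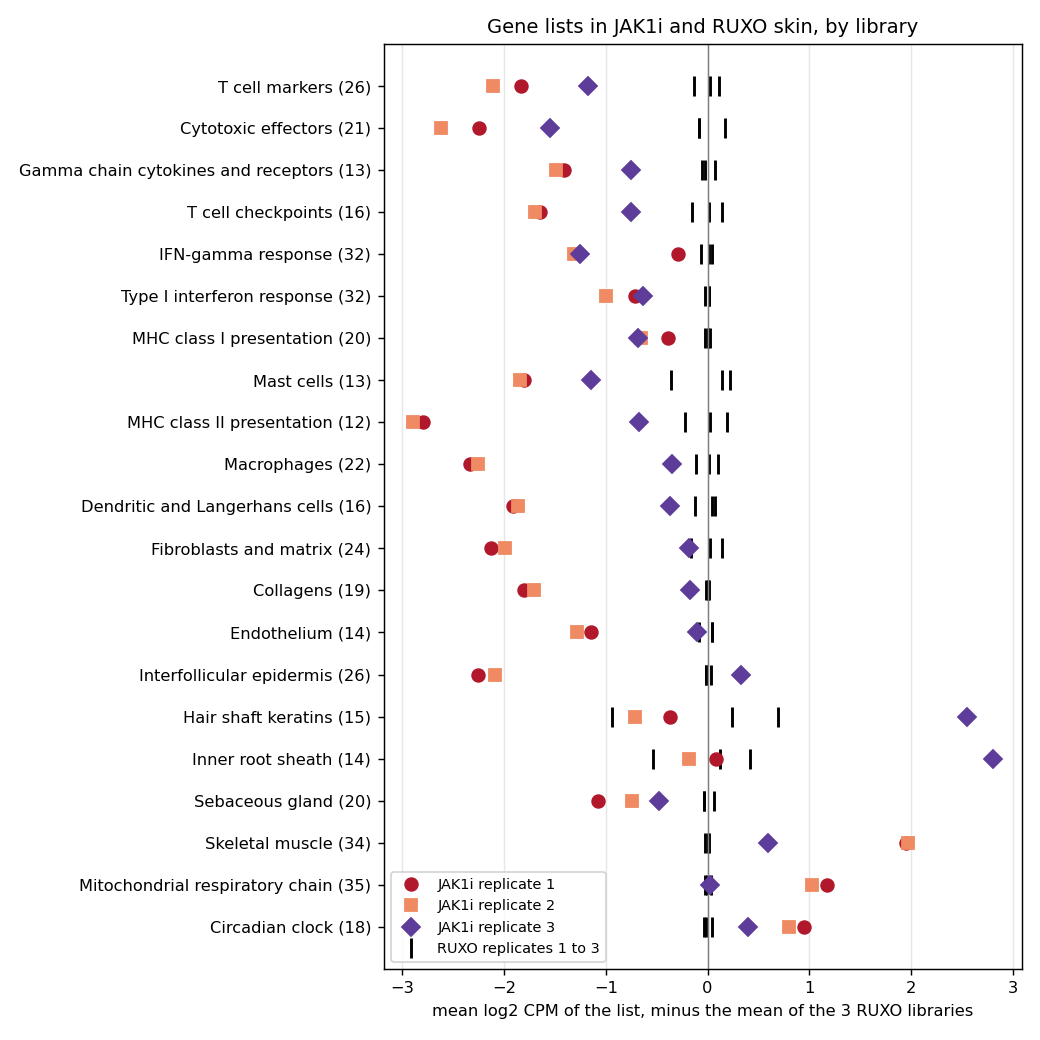
Mean log2 CPM of each gene list in each JAK1i library (symbols) and RUXO library (bars), minus the mean of the 3 RUXO libraries, with the number of genes tested in brackets. All JAK1i libraries lie left of the RUXO libraries for the T cell, interferon, MHC class I and mast cell lists, while JAK1i replicate 3 lies to the right of RUXO for epidermis and far to the right for hair shaft and inner root sheath.

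The genes of the 4 kinases did not pass the test, and 3 STAT genes did. Jak1 had 207, 201 and 237 CPM in JAK1i, against 222, 226 and 247 CPM in RUXO, and Jak2 had 80.9, 70.3 and 76.6 CPM in JAK1i, against 73.5, 75.0 and 80.2 CPM in RUXO. Jak1, Jak2, Jak3 and Tyk2 had adjusted p-values of 0.27, 0.97, 0.21 and 0.11, and the libraries of the groups overlapped for each. Of the STATs, Stat2, a member of the type I interferon complex, fell (log2 fold change -0.55 ± 0.08, adjusted p = 0.00011), as did Stat4, which serves the IL-12 receptor of T cells (-2.53 ± 0.34, adjusted p = 7.7e-05). Stat5b, the STAT of γc and growth hormone receptors, had 143, 152 and 108 CPM in JAK1i, against 94.9, 91.1 and 89.2 CPM in RUXO, and rose (0.55 ± 0.10, adjusted p = 0.00075).

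T cell genes were lower in JAK1i. Of 26 T cell markers 24 fell and none rose, and their median log2 fold change was -1.41. Their mean log2 CPM was 0.88, 0.60 and 1.54 in the JAK1i libraries, against 2.58, 2.73 and 2.82 in the RUXO libraries. Controls stood at 3.93, 4.04 and 4.17, above both treatments. Replicate 3, the highest JAK1i library here, had the lowest muscle share of the JAK1i libraries, and the part of that share was not tested. Cd8a, which marks the CD8+ cells of AA, had 1.01, 0.105 and 0.504 CPM in JAK1i, against 5.50, 6.76 and 7.57 CPM in RUXO and 110.1 ± 12.2 CPM (SD, n = 3) in controls. No JAK1i library reached the lowest RUXO library, and the log2 fold change was -3.62 ± 0.41 (adjusted p = 2.2e-05). The change was -3.70 ± 0.62 in replicate 3 alone (adjusted p = 0.0042). Cd8b1, the partner chain, fell too (-3.75 ± 0.54, adjusted p = 0.00012). Cd5 and Cd6, scavenger receptor proteins of T cells, fell as well, with 0, 0.263 and 0.056 CPM of Cd6 in JAK1i, against 2.47, 3.08 and 3.40 CPM in RUXO. Trac, the constant region of the T cell receptor α chain, had 1.01, 0.526 and 0.84 CPM in JAK1i, against 4.47, 3.99 and 5.0 CPM in RUXO (log2 fold change -2.50 ± 0.35, adjusted p = 0.00011). 8 of the 26 markers passed the test in replicate 3 alone.

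All 21 cytotoxic effector genes fell, at a median of -2.39 on the log2 scale. Without replicate 3 19 passed the test and in replicate 3 alone 5. Gzmc, a granzyme of activated killer cells, had 0.112, 0.158 and 1.62 CPM in JAK1i, against 11.8, 14.2 and 16.6 CPM in RUXO and 21.3 ± 3.16 CPM (SD, n = 3) in controls. RUXO thus lay nearer to control than to JAK1i for this gene (log2 fold change -4.50 ± 0.45, adjusted p = 7.1e-06). Gzmb, the granzyme most used as a marker of cytotoxicity, stood at 0.335, 0.316 and 0.112 CPM in JAK1i, against 1.26, 1.52 and 1.94 CPM in RUXO and 78.4 ± 7.06 CPM (SD, n = 3) in controls. Both treatments were far under control for it, and JAK1i was lower again (-2.59 ± 0.49, adjusted p = 0.00079). Klrk1, which encodes NKG2D, had 0.782, 0.421 and 3.81 CPM in JAK1i, against 7.09, 7.71 and 8.64 CPM in RUXO (-2.23 ± 0.43, adjusted p = 0.001). Prf1, perforin, passed the test narrowly (-1.01 ± 0.38, adjusted p = 0.045), with 2.29, 1.47 and 6.50 CPM in JAK1i, against 7.27, 6.50 and 6.84 CPM in RUXO. Its level in replicate 3 lay at the lower edge of the RUXO libraries, and the call was lost without JAK1i replicate 1 or 2 (adjusted p of 0.2 and 0.24) and without RUXO replicate 1, 2 or 3 (adjusted p of 0.094, 0.075 and 0.087). Ccl5 and Cxcr6, a chemokine and a chemokine receptor of tissue T cells, fell by 6.38 and 4.85 times in the edgeR fit. Ifng itself was near the limit of detection, at 0.0559, 0 and 0.168 CPM in JAK1i, against 0.559, 0.433 and 0.388 CPM in RUXO and 7.92 ± 0.92 CPM (SD, n = 3) in controls.

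Receptors of the γc family followed. 10 of 13 γc cytokine and receptor genes fell and none rose. Il2rb, the chain that IL-2 and IL-15 receptors share, had 1.79, 1.16 and 5.43 CPM in JAK1i, against 9.98, 10.4 and 10.7 CPM in RUXO (log2 fold change -1.90 ± 0.32, adjusted p = 0.00041). Il7r, the IL-7 receptor, had 2.40, 1.68 and 5.15 CPM in JAK1i, against 10.8, 12.8 and 15.7 CPM in RUXO (-2.09 ± 0.41, adjusted p = 0.0011). In both, replicate 3 lay between the other JAK1i libraries and RUXO. Il4ra, expressed well beyond T cells, had 36.9, 38.1 and 54.0 CPM in JAK1i, against 117, 105 and 104 CPM in RUXO and 329 ± 9.59 CPM (SD, n = 3) in controls, and fell in replicate 3 alone too (adjusted p = 0.0036). Il15, the cytokine made by follicle and skin cells, did not pass the test with all libraries, with 2.35, 4.74 and 7.84 CPM in JAK1i, against 7.22, 7.06 and 6.75 CPM in RUXO, and passed it without JAK1i replicate 3 (adjusted p = 0.0009). T cell checkpoint and costimulatory genes fell in 14 of 16, Lag3 and the ligand Cd274 (PD-L1) among them, and regulatory T cell genes in 8 of 13, including Foxp3 at 0.279, 0.947 and 0.616 CPM in JAK1i, against 1.45, 1.73 and 1.5 CPM in RUXO (adjusted p = 0.0053, and 0.052 without JAK1i replicate 1).

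Interferon response genes were lower in JAK1i, and for the IFN-γ response list replicate 3 was among the lowest libraries. Of 32 IFN-γ response genes 19 fell and none rose (median -0.74), and in replicate 3 alone 18 fell. Their mean log2 CPM was 4.23, 3.21 and 3.27 in the JAK1i libraries, against 4.57, 4.54 and 4.46 in the RUXO libraries, far under the 7.14, 7.01 and 7.14 of controls. Replicate 1 was the JAK1i library closest to RUXO by this mean. By summed CPM of the list it lay above RUXO, at 1573, against 1323, 1335 and 1292 in the RUXO libraries. The libraries of the groups did not overlap in 18 of the 32 genes, all lower in JAK1i, beside 19.4% of all genes. All 32 genes of the list fell against control in RUXO and all 32 in JAK1i, beside 27.2 and 35.4% of all genes. Cxcl9, a ligand of CXCR3 on T cells, had 7.21, 6.58 and 4.37 CPM in JAK1i, against 23.1, 19.0 and 17.3 CPM in RUXO and 544 ± 36.8 CPM (SD, n = 3) in controls. The log2 fold change was -1.71 ± 0.23 (adjusted p = 7.5e-05), and -2.19 ± 0.36 in replicate 3 alone (adjusted p = 0.0036). Cxcl10 and Cxcl11, the other ligands of CXCR3, fell too (-1.17 ± 0.20 and -1.25 ± 0.32, adjusted p of 0.0004 and 0.0058). Gbp2 and Gbp8, guanylate-binding proteins that attack vacuoles of pathogens, had 33.0, 23.6 and 23.4 and 1.79, 0.947 and 0.952 CPM in JAK1i, against 47.6, 51.8 and 49.6 and 6.81, 8.19 and 8.2 CPM in RUXO. Neither overlapped between the groups. Gbp genes are near copies of each other, so reads could have been shared among them.

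Of 32 type I interferon response genes 27 fell and 1 rose, at a median of -0.76. Their mean log2 CPM was 3.28, 2.99 and 3.36 in the JAK1i libraries, against 4.0, 4.0 and 3.97 in the RUXO libraries. Replicate 3 was the highest JAK1i library for this list. Oas1a, which senses double-stranded RNA, had 5.70, 7.31 and 6.22 CPM in JAK1i, against 15.5, 14.2 and 16.6 CPM in RUXO (log2 fold change -1.26 ± 0.17, adjusted p = 9e-05). Bst2, the tetherin that holds virions at the cell surface, had 18, 13.2 and 22.2 CPM in JAK1i, against 36.4, 36.7 and 34.6 CPM in RUXO (-1.01 ± 0.14, adjusted p = 7.5e-05). Ddx58, which encodes the RNA sensor RIG-I, fell by less but with a smaller spread (-0.67 ± 0.08, adjusted p = 4e-05). In each of these the 3 JAK1i libraries lay below the 3 RUXO libraries and replicate 3 passed the test alone.

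Interferon signals are read through short sites in promoters, and 8 stretches upstream of the start are shown because they hold the letters of such a site, or of a class II promoter element, in a gene that fell. They were chosen after the values were seen. Sequences are RefSeq's for the reference strain on GRCm38.p6, on the strand of the gene, and C3H/HeJ differs from that strain, above all in the H2 genes. Capitals mark the core of the interferon-stimulated response element, GAAA, any 2 bases and GAAA, on either strand in the first 5, TTCNNNGAA, the spacing bound by STAT dimers, in Irf8, and CTGATTGG, the Y box of MHC class II promoters, in H2-Aa and H2-Eb1.
Gbp2: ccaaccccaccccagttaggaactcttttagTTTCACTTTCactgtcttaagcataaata
Oas1a: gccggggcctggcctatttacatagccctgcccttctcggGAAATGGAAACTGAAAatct
Bst2: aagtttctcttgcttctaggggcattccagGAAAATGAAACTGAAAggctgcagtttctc
B2m: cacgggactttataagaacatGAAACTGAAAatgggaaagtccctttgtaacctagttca
Cxcl10: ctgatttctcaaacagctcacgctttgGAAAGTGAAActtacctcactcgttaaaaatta
Irf8: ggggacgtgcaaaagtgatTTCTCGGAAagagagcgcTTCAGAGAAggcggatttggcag
H2-Aa: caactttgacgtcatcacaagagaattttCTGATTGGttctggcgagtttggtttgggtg
H2-Eb1: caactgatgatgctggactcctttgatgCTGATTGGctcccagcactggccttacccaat
These lie at chr3:142620573-142620632 (plus strand), chr5:120907526-120907585 (minus), chr8:71537573-71537632 (minus), chr2:122147527-122147586 (plus), chr5:92349070-92349129 (minus), chr8:120736168-120736227 (plus), chr17:34287844-34287903 (minus) and chr17:34305777-34305836 (plus).

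Over promoters from 250 bases before to 50 after the start, available for 13138 of the tested genes, the response element core was found on either strand in 5.45% of 2916 promoters of genes that fell in JAK1i, 1.77% of 2650 promoters of genes that rose, and 3.19% of all 16530. TTCNNNGAA, searched on both strands as well, was found in 7.78% of the promoters of genes that fell, 6.79% of those of genes that rose and 7.08% of all. CTGATTGG was found in 5.18%, 5.09% and 5.25% in the same order. Among the listed genes, the response element core was present in 11 of 22 promoters of IFN-γ response genes. It was present in 15 of 29 of type I interferon response genes and 5 of 19 of MHC class I genes. None of 14 promoters of mast cell genes and 34 of skeletal muscle genes held it. CTGATTGG was found in 8 of 19 promoters of MHC class I genes and 4 of 9 of MHC class II genes. A match is a run of letters only, and binding was not measured.

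MHC class I genes, which show peptides to CD8+ T cells, fell by a smaller factor. 19 of 20 fell, at a median of -0.58, and 15 fell in replicate 3 alone. B2m, the light chain common to all class I molecules, had 1241, 881 and 1126 CPM in JAK1i, against 1688, 1788 and 1929 CPM in RUXO and 2910.4 ± 189.7 CPM (SD, n = 3) in controls. Its log2 fold change was -0.73 ± 0.11 (adjusted p = 0.0002). Psmb9, a subunit of the immunoproteasome that cuts the peptides, had 61.1, 54.7 and 36.4 CPM in JAK1i, against 97.7, 96.0 and 88.4 CPM in RUXO, and replicate 3 was the lowest of the 6 libraries. H2-K1 and H2-D1, the classical heavy chains, fell by 1.61 and 1.65 times in the edgeR fit. The H2 genes of C3H/HeJ are of another haplotype than the reference and are near copies of each other, so reads may have been lost or shared among them. B2m is not among these copies.

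Mast cell genes were lower in JAK1i than in RUXO, and RUXO lay above control. 11 of 13 fell in JAK1i relative to RUXO, at a median of -1.62. Against control, 6 fell and 2 rose in JAK1i (35.4 and 28.8% of all genes), and none fell and 7 rose in RUXO (27.2 and 23.6% of all genes). Mcpt4, the chymase of connective tissue mast cells, had 43.4, 39.1 and 61.7 CPM in JAK1i, against 111, 156 and 173 CPM in RUXO and 41.4 ± 6.12 CPM (SD, n = 3) in controls. Its log2 fold change was -1.61 ± 0.24 (adjusted p = 0.00013), and -1.26 ± 0.33 in replicate 3 alone (adjusted p = 0.041). Cma1, Tpsb2 and Cpa3, further proteases stored in mast cell granules, and Mrgprb1, a receptor gene of the same list, fell alike. For Mrgprb1 the libraries stood at 5.09, 4.95 and 9.52 CPM in JAK1i, against 19.9, 26.6 and 30.4 CPM in RUXO.

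Immunoglobulin genes of antibody-producing cells had the largest falls among called genes with a mean log2 CPM of at least 1 and no overlap. Igha, the IgA heavy chain, had 0.615, 0.789 and 3.70 CPM in JAK1i, against 59.8, 119 and 152 CPM in RUXO and 92.5 ± 55.7 CPM (SD, n = 3) in controls. Igkc, the κ light chain, had 4.86, 0.842 and 2.75 CPM in JAK1i, against 44.1, 80.7 and 108 CPM in RUXO. Jchain, which joins IgA and IgM into polymers, had 2.85, 0.737 and 1.40 CPM in JAK1i, against 20.5, 39.7 and 56.2 CPM in RUXO. No JAK1i library came near the lowest RUXO library for any of these, though the RUXO libraries themselves differed more than 2-fold, and the log2 fold changes were -6.03 ± 1.12, -4.79 ± 0.85 and -4.55 ± 0.86 (adjusted p of 0.00075, 0.00054 and 0.00081). None of them passed in replicate 3 alone (adjusted p of 0.12, 0.065 and 0.08). Over the list of B and plasma cell genes 8 of 15 fell and none rose with all libraries. JAK1i replicate 3 lay below all RUXO libraries in 6 of the 15 and above all in 5. Mndal, an interferon-inducible member of the Ifi200 family, stood at 2.74, 1.42 and 1.85 CPM in JAK1i, against 20.0, 18.1 and 19.5 CPM in RUXO and 3.76 ± 0.878 CPM (SD, n = 3) in controls, so that RUXO was the high group. The Ifi200 genes are close copies, which makes its counts uncertain. Rxfp1, the relaxin receptor, and Cd163l1, a scavenger receptor of γδ T cells in mice, were also higher in RUXO than in JAK1i and in controls, with 2.07, 1.37 and 4.37 CPM of Cd163l1 in JAK1i, against 14.8, 15.5 and 15 CPM in RUXO and 5.28 ± 0.874 CPM (SD, n = 3) in controls.

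**Figure D3:**
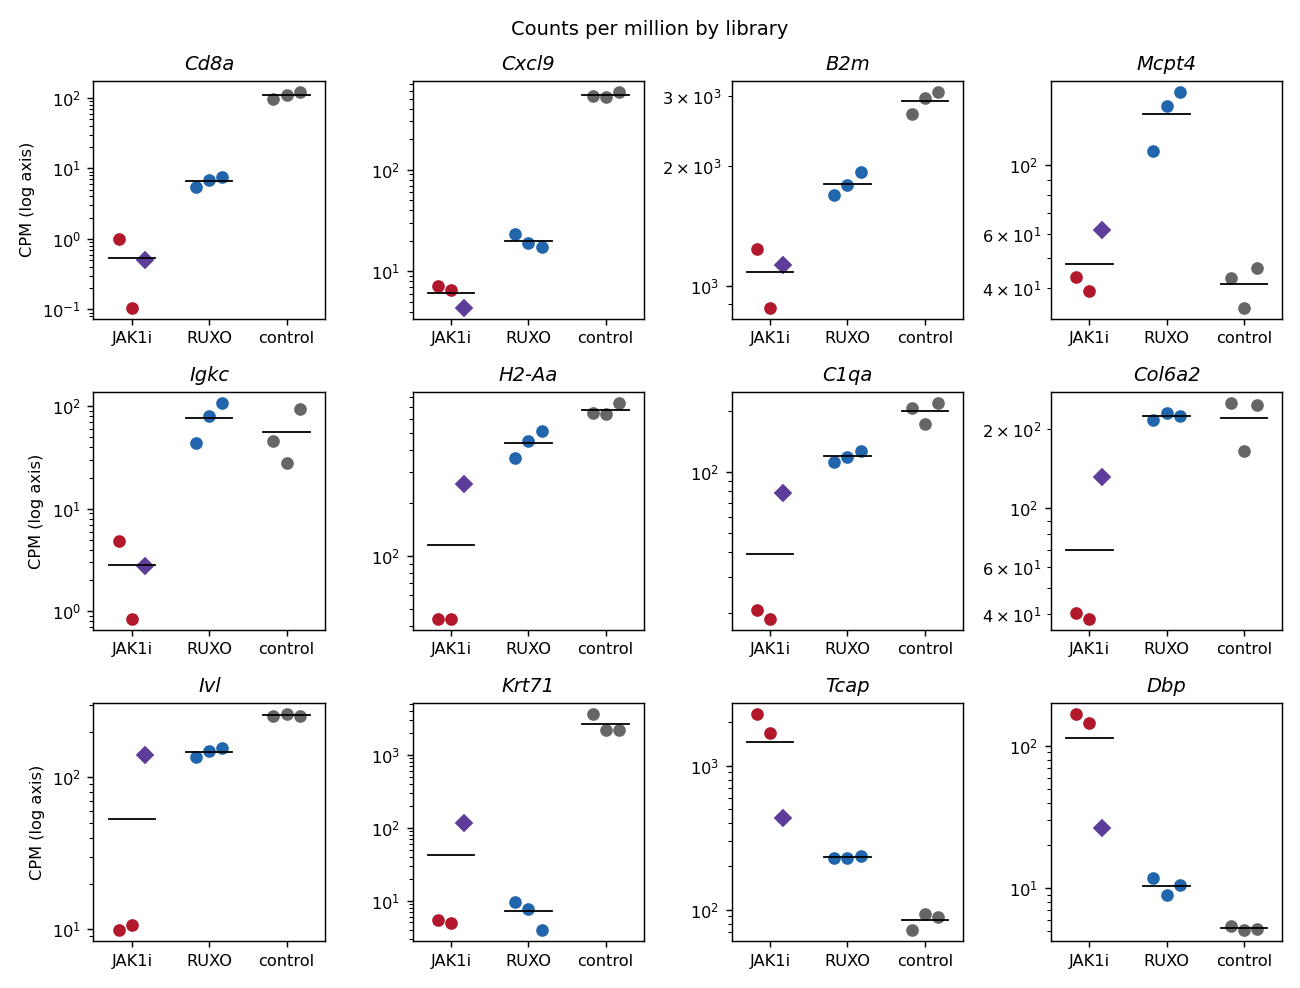
CPM of 12 genes in each JAK1i, RUXO and control library on log axes, with JAK1i replicate 3 as a diamond and the mean of each group as a line. Cd8a, Cxcl9, B2m, Mcpt4 and Igkc are low in all JAK1i libraries, H2-Aa, C1qa, Col6a2 and Ivl are low in JAK1i replicates 1 and 2 with replicate 3 nearer to RUXO, Krt71 is raised in JAK1i replicate 3, and Tcap and Dbp are highest in JAK1i replicates 1 and 2.

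MHC class II genes, which show peptides to CD4+ T cells, differed mainly in JAK1i replicates 1 and 2. 11 of 12 fell with all libraries, 12 without replicate 3 and 1 in replicate 3 alone, with median log2 fold changes of -1.85, -3.19 and -0.69. H2-Aa, the α chain of I-A, had 43.8, 43.7 and 257 CPM in JAK1i, against 359, 448 and 514 CPM in RUXO and 675 ± 56.2 CPM (SD, n = 3) in controls. Replicate 3 lay below the lowest RUXO library and far above replicates 1 and 2, and the log2 fold change was -1.94 ± 0.44 with all libraries (adjusted p = 0.0028) and -0.78 ± 0.24 in replicate 3 alone (adjusted p = 0.074). H2-DMb1, which helps load class II peptides, was the member that passed there (-0.96 ± 0.24, adjusted p = 0.036). Against control, 11 of 12 fell in JAK1i and 2 in RUXO, beside 35.4 and 27.2% of all genes.

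The cells that carry class II showed the same order of libraries. Macrophage genes fell in 15 of 22 with all libraries and in 19 without replicate 3. Their median log2 fold change was -1.31 with all libraries and -0.41 in replicate 3 alone. Replicate 3 lay below all RUXO libraries in 16 of the 22 and above all in 4. C1qa, the complement component made by tissue macrophages, had 20.8, 18.7 and 78.7 CPM in JAK1i, against 112, 119 and 127 CPM in RUXO (log2 fold change -1.60 ± 0.34, adjusted p = 0.0018). Dendritic and Langerhans cell genes fell in 13 of 16. Xcr1, the receptor that marks cross-presenting dendritic cells, had 0.838, 0.474 and 1.46 CPM in JAK1i, against 4.20, 4.59 and 6.41 CPM in RUXO. In replicate 3 alone its log2 fold change was -1.80, where the median of the dendritic and Langerhans cell list was -0.5. CC chemokine and receptor genes fell in 18 of 28 and none rose. Ccl8, a chemokine of skin macrophages, had 22.4, 12.2 and 53.2 CPM in JAK1i, against 137, 155 and 184 CPM in RUXO, with replicate 3 between the others and RUXO.

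JAK2 serves the GM-CSF receptor, and its genes were read for that reason. Of 18 genes of JAK2-linked receptors and growth hormone targets 9 fell and 1 rose, beside 17.4 and 15.2% of all genes. Csf2ra, the GM-CSF receptor α chain carried by myeloid cells, had 8.77, 11.3 and 24.7 CPM in JAK1i, against 38.2, 37.7 and 39.8 CPM in RUXO (log2 fold change -1.37 ± 0.27, adjusted p = 0.0011). Its shared β chain Csf2rb fell too (-0.85 ± 0.19, adjusted p = 0.0025). Igf1, which growth hormone induces through JAK2, had 42.4, 35.4 and 73.8 CPM in JAK1i, against 78.3, 96.1 and 98.3 CPM in RUXO and 45.9 ± 7.51 CPM (SD, n = 3) in controls (-0.85 ± 0.21, adjusted p = 0.005). Ifngr2, the chain of the IFN-γ receptor that binds JAK2, rose (0.51 ± 0.10, adjusted p = 0.0012). None of these 4 passed in replicate 3 alone (adjusted p of 0.18, 0.34, 0.49 and 0.34). Of 13 feedback inhibitors of the SOCS kind 4 fell and 1 rose, beside 17.4 and 15.2% of all genes. Their median log2 fold change was -0.24, and -0.04 in replicate 3 alone. Socs1, which IFN-γ induces, fell (-1.27 ± 0.20, adjusted p = 0.00023), with 3.63, 4.21 and 7.28 CPM in JAK1i, against 12.4, 12.0 and 12.1 CPM in RUXO, and its adjusted p in replicate 3 alone was 0.073.

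Genes of structural cells of the dermis were lower mainly in JAK1i replicates 1 and 2. Collagen genes fell in 13 of 19 and 1 rose, and in replicate 3 alone none of the 19 was called. Col6a2, a chain of the microfibrillar collagen of the dermis, had 40.2, 38.3 and 131 CPM in JAK1i, against 216, 229 and 224 CPM in RUXO and 220.1 ± 48.1 CPM (SD, n = 3) in controls (log2 fold change -1.67 ± 0.35, adjusted p = 0.0018). RUXO lay at the level of control, replicate 3 below it, and replicates 1 and 2 lower still. Col7a1, which forms the anchoring fibrils below keratinocytes, was the one that rose (0.86 ± 0.18, adjusted p = 0.0016). Fibroblast and matrix genes fell in 15 of 24, in 22 without replicate 3 and in none in replicate 3 alone. Thy1, a surface marker of dermal fibroblasts and of T cells, had 32.7, 41.1 and 86.8 CPM in JAK1i, against 115, 143 and 155 CPM in RUXO. Endothelial genes fell in 5 of 14, beside 17.4% of all genes, and in 11 without replicate 3, beside 26.5%. They were led by the lymphatic marker Lyve1 at 0.95, 2.16 and 12.6 CPM in JAK1i, against 31.3, 28.2 and 27.7 CPM in RUXO. The muscle share of the counts given above moved with these lists, and with the MHC class II, macrophage and dendritic cell lists, across the JAK1i libraries, and its part in them was not tested. JAK1i replicate 3 had the lowest muscle share of the JAK1i libraries. It was also the highest of them for the T cell, cytotoxic, γc, checkpoint, mast cell and type I interferon lists. It was not the highest for the IFN-γ response and MHC class I lists. The part of the muscle share in these lists was not tested either.

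Epidermal genes split the JAK1i libraries. With all libraries 1 of 26 interfollicular epidermis genes fell and 1 rose, without replicate 3 21 fell and 2 rose, and in replicate 3 alone none fell and 2 rose. Their mean log2 CPM was 6.13, 6.30 and 8.72 in the JAK1i libraries, against 8.37, 8.42 and 8.37 in the RUXO libraries. It was low in the JAK1i libraries in which the muscle share was high, and the part of that share was not tested. Ivl, involucrin of the cornified envelope, had 9.89, 10.7 and 139.7 CPM in JAK1i, against 135, 149 and 156 CPM in RUXO. Replicate 3 thus lay within the RUXO libraries, and replicates 1 and 2 far below them (-3.75 ± 0.12 without replicate 3, adjusted p = 1.5e-14). Asprv1, the protease that processes filaggrin, had 18.8, 20.3 and 497 CPM in JAK1i, against 500.2, 572 and 590.0 CPM in RUXO. Krt5, the keratin of basal cells, ran the other way, with 5930.2, 6524 and 4029.5 CPM in JAK1i, against 4469.5, 4064 and 3668 CPM in RUXO (0.70 ± 0.11 without replicate 3, adjusted p = 3.3e-05). With all libraries its adjusted p was 0.033, and without JAK1i replicate 1 or 2 or RUXO replicate 2 or 3 it was 0.083, 0.14, 0.079 and 0.13. Skint2, a keratinocyte gene of the Skint family, and Ereg, an EGF receptor ligand, had 0.224, 0.789 and 21.4 and 1.06, 1.37 and 19.9 CPM in JAK1i, against 26.9, 24.9 and 28.2 and 19.2, 22.1 and 24.2 CPM in RUXO. These are among the genes in which replicate 3 lay farthest above the other JAK1i libraries. Their calls with all libraries (adjusted p of 0.046 and 0.044) were lost on leaving out JAK1i replicate 1 or 2 or RUXO replicate 1, 2 or 3, where adjusted p-values for Skint2 were 0.13, 0.16, 0.081, 0.078 and 0.093 and for Ereg 0.16, 0.17, 0.064, 0.086 and 0.1.

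**Figure D4:**
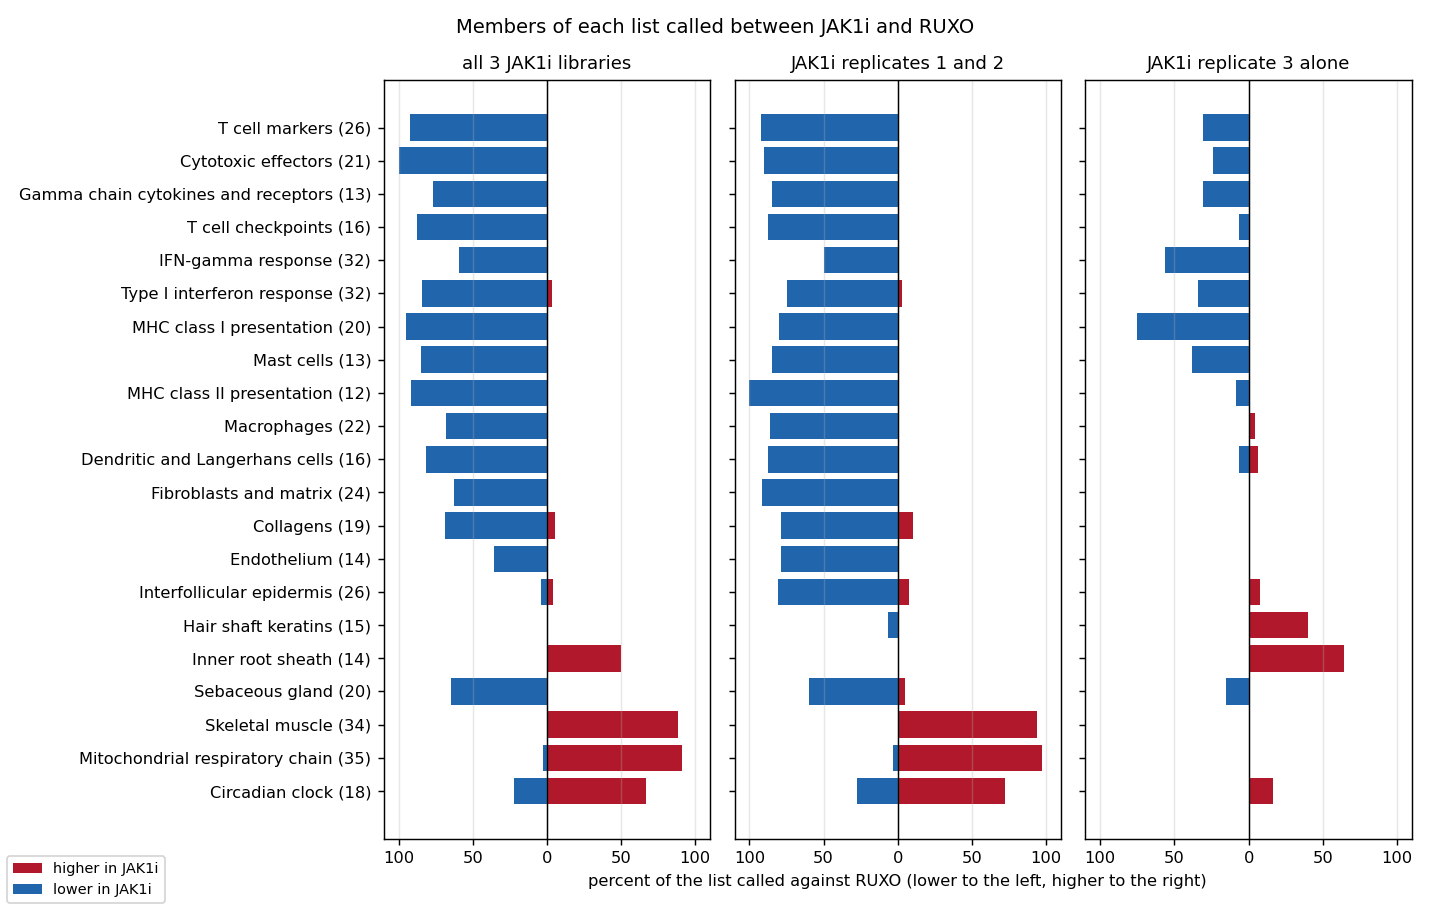
Share of each list, in percent of the genes tested, that was called lower (left) or higher (right) in JAK1i against RUXO, with all libraries, with JAK1i replicates 1 and 2, and with replicate 3 alone. In replicate 3 alone 15 of 20 MHC class I and 18 of 32 IFN-γ response genes are called lower, whereas fibroblasts, collagens, endothelium, muscle and the respiratory chain have none there, and inner root sheath genes are called higher only with replicate 3 included.

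Inner root sheath genes, which build the sheath that moulds a growing hair, were higher through replicate 3. They rose in 7 of 14 with all libraries, in none without replicate 3 and in 9 in replicate 3 alone. Krt71, a keratin of that sheath, had 5.48, 4.95 and 117 CPM in JAK1i, against 9.60, 7.71 and 3.93 CPM in RUXO and 2637 ± 828 CPM (SD, n = 3) in controls. Replicates 1 and 2 were within the RUXO libraries, and all treated libraries were far below control. Tchh, trichohyalin of the sheath and medulla, had 18.3, 21.4 and 297 CPM in JAK1i, against 26.0, 21.7 and 20.5 CPM in RUXO. The log2 fold changes in replicate 3 alone were 4.04 ± 0.49 and 3.70 ± 0.43 (adjusted p of 0.00029 and 0.00019), and without it -0.36 ± 0.48 and -0.11 ± 0.38 (adjusted p of 0.56 and 0.82). With all libraries the adjusted p was 0.019 for Krt71 and 0.017 for Tchh, and without RUXO replicate 2 or 3 it was 0.055 and 0.081 for Krt71 and 0.057 and 0.062 for Tchh. Hair shaft keratins were called in none of 15 with all libraries, fell in 1 without replicate 3 and rose in 6 in replicate 3 alone, Krt33a among them at 0.95, 0.474 and 19.8 CPM in JAK1i, against 2.38, 1.56 and 0.922 CPM in RUXO (adjusted p = 0.041 without JAK1i replicate 2). Of 21 follicle stem cell genes 3 rose and 2 fell, beside 15.2 and 17.4% of all genes. Col17a1, the hemidesmosomal collagen of stem cells and basal keratinocytes, had 1811, 1974 and 1618 CPM in JAK1i, against 1108, 1001 and 861 CPM in RUXO. It rose in the test with all libraries (0.86 ± 0.13, adjusted p = 0.00013) and in replicate 3 alone (0.70 ± 0.16, adjusted p = 0.021). Cd34, of bulge cells and of vessels and fibroblasts, fell (-1.03 ± 0.26, adjusted p = 0.0063), with 96.3, 109 and 278 CPM in JAK1i, against 280.2, 335 and 370.0 CPM in RUXO.

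Sebaceous gland genes fell in 13 of 20 and none rose. Against control, 11 of the 20 rose in JAK1i and 17 in RUXO, beside 28.8 and 23.6% of all genes. Elovl5, an elongase of fatty acids, had 65.0, 77.2 and 123 CPM in JAK1i, against 207, 209 and 222 CPM in RUXO and 74.6 ± 5.88 CPM (SD, n = 3) in controls, and the JAK1i libraries were lower in all 3, replicate 3 included (adjusted p = 0.021). Awat1, which makes the wax esters of sebum, had 9.39, 12.4 and 14.5 CPM in JAK1i, against 27.4, 29.8 and 37.7 CPM in RUXO (-1.39 ± 0.27, adjusted p = 0.00098).

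Muscle, respiratory chain and clock genes were higher mainly in JAK1i replicates 1 and 2. Skeletal muscle genes rose in 30 of 34, at a median of 1.65, and in replicate 3 alone none was called, with a median of 0.52. Tcap, the cap protein of titin, had 2288, 1701 and 437 CPM in JAK1i, against 229, 229 and 238 CPM in RUXO and 85.0 ± 11.3 CPM (SD, n = 3) in controls. Ryr1, the calcium release channel, had 3422, 3127 and 1522 CPM in JAK1i, against 832, 662 and 541 CPM in RUXO (log2 fold change 1.99 ± 0.36, adjusted p = 0.0006). For both, all JAK1i libraries lay above all RUXO libraries, with replicate 3 nearest to RUXO. How much muscle below the skin each biopsy held is not given in the sources used here. Nuclear genes of the respiratory chain rose in 32 of 35 and 1 fell. Uqcrc1, of complex III, had 513, 499 and 256 CPM in JAK1i, against 231, 206 and 204 CPM in RUXO. The muscle share moved with these genes and its part in them was not tested.

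Clock genes rose in 12 of 18 and fell in 4. Dbp, a transcription factor that the clock drives, had 168, 146 and 26.5 CPM in JAK1i, against 11.7, 9.01 and 10.5 CPM in RUXO and 5.23 ± 0.183 CPM (SD, n = 3) in controls. Its rise was the largest among called genes with a mean log2 CPM of at least 1 and no overlap (3.44 ± 0.43, adjusted p = 4.5e-05), and also rose in replicate 3 alone (1.34 ± 0.28, adjusted p = 0.013). Per3, a period gene, had 133, 108 and 51.3 CPM in JAK1i, against 29.1, 26.4 and 28.8 CPM in RUXO (1.79 ± 0.22, adjusted p = 3.6e-05). Nr1d1, the repressor REV-ERBα, had 307, 346 and 138 CPM in JAK1i, against 98.7, 88.0 and 79.3 CPM in RUXO (1.57 ± 0.25, adjusted p = 0.00027). The mean log2 CPM of the list was 5.93, 5.78 and 5.38 in the JAK1i libraries, against 5.03, 4.95 and 4.97 in the RUXO libraries. The muscle share moved with it across the JAK1i libraries, and its part in these values was not tested. The hour at which each biopsy was taken is not given in the sources used here. Chac1, which degrades glutathione under endoplasmic reticulum stress, had 67.5, 46.1 and 16.2 CPM in JAK1i, against 4.20, 4.59 and 3.30 CPM in RUXO and 44.2 ± 14.5 CPM (SD, n = 3) in controls, so that RUXO was the low group (3.42 ± 0.46, adjusted p = 8e-05). Cell cycle genes gave 1 call in 26, Mcm2, a helicase subunit, with 22.7, 28.1 and 13.5 CPM in JAK1i, against 16.1, 13.0 and 11 CPM in RUXO. Its adjusted p of 0.024 became 0.065 and 0.15 without JAK1i replicate 1 or 2 and 0.07 and 0.11 without RUXO replicate 2 or 3.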

How the data were processed

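RNA-Seq libraries of skin from C3H/HeJ AA mice were read as 75-base pairs. The authors deposited raw read counts per Entrez gene, and the submitters' processing notes name Subread, DESeq2 1.18.1 and mm10 (GRCm38). Strand and trimming settings are not given in the sources used here, so overlapping and antisense genes are uncertain. A deposited table of score values, which holds scaled levels and z scores made by the authors, was used only to compare column names. In the counts, 26 symbols turned into dates were restored, and 855 genes without a symbol made up at most 0.608% of a library.

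Tests used edgeR 4.0.16 (R 4.3.3). filterByExpr (minimum count 10, minimum total 15) left 17770 genes, libraries were scaled by TMM, and the quasi-likelihood fit took 24 libraries in 7 groups (common coefficient of variation 0.17). P-values were adjusted by Benjamini and Hochberg over all genes at 0.05. At 17311913 to 21858670 counts per library the median standard error of a JAK1i minus RUXO log2 fold change was 0.164. Each standard error was worked back from the test, as the absolute log2 fold change divided by the square root of its F statistic. Log2 CPM of lists used a prior count of 2. On simulated counts for JAK1i minus RUXO over 17770 genes, edgeR found 77% and 95% of changes of 1 and 2 log2 units. The simulated JAK1i libraries shared a common mean for each gene. None stood apart as JAK1i replicate 3 did, so these shares do not give the recovery in the real comparison.

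Members and gene lists were chosen with earlier results of these data known, so lists are given as counts and medians, without a list test. The genes named are the 15 largest rises and falls (called, mean log2 CPM of at least 1, no overlap), up to 6 members of each of 42 lists with the smallest p, genes the study names, and the 6 genes in each direction in which JAK1i replicate 3 lay farthest from replicates 1 and 2; not all are described. Fitting replicate 3 alone or leaving it out together with another change was chosen after seeing the data. Other settings were DESeq2 1.42.0, RLE scaling, other count filters (none, or CPM of at least 1 in at least 3 libraries), fewer libraries, a replicate block, scaling without muscle genes and leaving out each library. Same-numbered JAK1i and RUXO libraries did not deviate together. Promoters were RefSeq's, from 250 bases before to 50 after the start. C5, Krt85, Il36a, Il36g, Hbb-bt and Ahsp were not used here. Some genes of these lists are not reported here.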

Additional observations from a re-analysis of the deposited data

How the results depend on the processing

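The number of genes called between JAK1i and RUXO, 5800 with all libraries, ranged from 3334 to 9493 when 1 library was left out, the lowest without JAK1i replicate 1 and the highest without JAK1i replicate 3. It was 4 in a fit of the 2 groups alone, 658 for JAK1i replicate 3 alone, and without JAK1i replicate 3 it was 9662 in the 2 groups alone and 9510 in DESeq2. DESeq2 (6447), RLE scaling (5954), no filter (5387), a stricter filter (5957) and scaling without muscle genes (6032) stayed within 1.5 times of 5800. The share of calls that were higher in JAK1i was 46.6% and became 57.1% when muscle genes were left out of the scaling. The cause was not tested. The counts against control, 11403 for JAK1i and 9042 for RUXO, stayed within 1.5 times under every alternative run.

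Of 91 genes named with a test, 83 were called, and 81 of these lost the call in the fit of the 2 groups alone and 39 in JAK1i replicate 3 alone. RLE scaling, scaling without muscle genes and DESeq2, which gave 87 of the 91 an adjusted p, ended none of these calls. Without JAK1i replicate 3 the log2 fold changes changed sign for Krt71, Tchh and Krt33a, to -0.36, -0.11 and -1.11 with all other libraries, -0.38, -0.13 and -1.13 in the 2 groups alone and -0.36, -0.12 and -1.11 in DESeq2. On leaving out 1 library at a time they ranged from -0.36 to 3.12 for Krt71, -0.11 to 2.82 for Tchh and -1.11 to 2.69 for Krt33a. In JAK1i replicate 3 alone the sign changed for Krt5 (-0.02), Jak1 (0.03), Il15 (0.16) and Jak2 (0.00). Jak2 was also positive in DESeq2, RLE scaling and no filter (0.05 each), the stricter filter (0.06), the 2 groups alone (0.04, and 0.05 without JAK1i replicate 3), scaling without muscle genes (0.07), DESeq2 without JAK1i replicate 3 (0.07), and ranged from -0.03 to 0.10 on leaving out 1 library at a time.

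Replicate numbers did not pair the libraries, since same-numbered JAK1i and RUXO libraries deviated with correlations of -0.0043, -0.0415 and -0.0477. Over the 18 libraries after treatment, 4959 genes were called with a replicate block and 5079 without it. A gene at under 1 CPM, such as Ifng, rests on few reads in each library, which limits how closely its fold change is known.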

Other observations

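Complement genes, whose products tag cells and microbes for uptake, fell in 12 of 20 and 1 rose. C3, the central component, had 212, 222 and 274 CPM in JAK1i, against 454, 541 and 509.5 CPM in RUXO (log2 fold change -1.09 ± 0.25, edgeR adjusted p = 0.0029). C4b, of the classical pathway, had 82.2, 51.7 and 113 CPM in JAK1i, against 205, 189.9 and 178 CPM in RUXO, and no JAK1i library reached the lowest RUXO library. NK cell genes fell in 3 of 6, with Ncr1, the activating receptor NKp46, at 0.0559, 0.105 and 0.168 CPM in JAK1i, against 1.03, 1.26 and 1.21 CPM in RUXO.

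Lipid synthesis genes fell in 9 of 22 and rose in 2. Hmgcs1, an enzyme of cholesterol synthesis, had 284, 289 and 395 CPM in JAK1i, against 466, 497 and 537 CPM in RUXO and 396 ± 17.7 CPM (SD, n = 3) in controls (log2 fold change -0.63 ± 0.12, adjusted p = 0.0007). Fat cell genes rose against control in 20 of 22 in JAK1i, beside 28.8% of all genes, and 20 in RUXO, beside 23.6%. Of the same genes 7 fell and 2 rose in JAK1i against RUXO, at a median of -0.26. Slc2a4, one of those that rose and the insulin-responsive glucose transporter of fat and muscle, had 319, 266 and 119 CPM in JAK1i, against 77.1, 75.9 and 72.5 CPM in RUXO, with the JAK1i libraries in the same order as for the muscle share. Nerve and Schwann cell genes fell in 2 of 13, beside 17.4% of all genes, and none rose. Ngfr, the nerve growth factor receptor of Schwann cells, had 5.20, 7.31 and 9.19 CPM in JAK1i, against 18.2, 19.0 and 19.4 CPM in RUXO (-1.38 ± 0.20, adjusted p = 0.00012). Hemoglobin and heme genes rose in 2 of 6, with Hbb-bs at 11.8, 9.05 and 23.5 CPM in JAK1i, against 5.17, 7.28 and 8.64 CPM in RUXO, replicate 3 being the highest library. The adjusted p of Hbb-bs was 0.039, and 0.16 without JAK1i replicate 3 and 0.13, 0.085 and 0.053 without RUXO replicates 1, 2 and 3.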
